A study of Mus musculus with 16 samples.

Results

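The comparison described here set TLR7 TLR9 KO cells (the double knockout) against TLR9 KO cells, so that both groups lacked TLR9 and differed in TLR7. It drew on 6 of the 16 arrays of the series: 3 of the double knockout and 3 of TLR9 KO, matched at 6, 24 and 42 h. The members were chosen by their labels, not by any measured value. All cells were AM14 B cells from spleen, which carry an antigen receptor that binds immunoglobulin G, and all 6 arrays used here came from cells given PL2-3, a monoclonal autoantibody, for the stated time. TLR7 KO and WT arrays of the same times, from cells that carry TLR9, gave a second difference to set beside the one studied here. They also entered a fit of 12 arrays, the correlations between arrays and an alternative in which their mean replaced TLR9 KO. Unstimulated arrays of each genotype (0 h) gave the starting levels. No cells were cultured without PL2-3, so effects of the antibody and of the hours spent in culture cannot be told apart. Age, sex, the dose of antibody and whether animals were pooled were not given in the sources used here.

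TLR7 and TLR9 are endosomal receptors for RNA and DNA, and both signal through the adaptor MyD88 to NF-kB and interferon regulatory factors. PL2-3 binds chromatin, and the complexes it forms with material from dying cells are taken up through the AM14 receptor and carried to the endosome. In B cells such complexes drive blast formation, entry into the cell cycle and cytokine genes. TLR9 is known to restrain TLR7 in mouse models of lupus, and the interferon-stimulated genes respond to type I interferon.

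Each array read its sample in Cy5 and, in Cy3, a pool of RNA from unstimulated B cells of the 4 genotypes, so a value below is the log2 ratio of the sample to that pool, and a difference is that of the double knockout minus TLR9 KO. There was 1 array per genotype and time. Differences at a single time therefore have no replicate check and no p-value, and a gene is counted there when it lay at least 2-fold apart (a log2 difference of 1). The fit over the 3 times treated them as replicates, so its p-values measure how far the 3 time-matched differences disagreed. The TLR7 TLR9 KO and TLR9 KO arrays lay on the same slide. The share of spots well above background in Cy5 ran from 49.51% to 56.45% on the 3 double knockout arrays and from 50.61% to 55.01% on the 3 TLR9 KO arrays, and no spot was saturated.

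The late arrays of the double knockout and TLR9 KO did not pair by time. Over 22131 genes the TLR9 KO array at 42 h correlated at 0.931 with the double knockout at 24 h and at 0.907 with the double knockout at 42 h. The TLR9 KO array at 24 h correlated at 0.934 with WT and at 0.929 with TLR7 KO at 24 h. With the double knockout it correlated at 0.886 at 42 h and at 0.808 at 24 h. The double knockout array at 24 h correlated at 0.82 with WT and at 0.828 with TLR7 KO at 24 h. It correlated at 0.914 with the double knockout at 42 h. All arrays share the pool in Cy3, so these values are descriptions. The cause of this order was not tested. No other measurement in the files checks which time a late array belongs to. Every 24 h and 42 h difference below therefore depends on the labels of the late arrays of both genotypes. Results are given at each time for this reason, and the 6 h values use no late array.

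Tlr7 signal was lower in the double knockout at every time by 2 of its 3 probes. This bears on the TLR7 label only, and not on the TLR9 label or the times. The Tlr7 probe at mm9 chrX:163742863-163742922 gave, at 6, 24 and 42 h, 0.12, 0.36 and 0.41 in the double knockout and 1.07, 1.64 and 1.71 in TLR9 KO. The groups did not overlap, and the mean difference was -1.18 ± 0.127 (SE, n = 3 times), with an unadjusted p of 0.000293 and an adjusted p of 0.945 by limma. A second probe at chrX:163743146-163743205 gave a mean difference of -1.29. Another at chrX:163747214-163747273 gave 0.19, 0.50 and 0.31 in the double knockout against 0.05, 0.11 and 0.02 in TLR9 KO, a mean difference of 0.28, and was well above background on 3 double knockout arrays and 0 TLR9 KO arrays. The probes thus disagreed along the gene. In cells with TLR9, the first probe gave -1.31 in TLR7 KO minus WT. Tlr9, which both groups lack per the labels, was well above background on all 6 arrays, and at 0 h it lay at -0.07 in the double knockout and 0.04 in TLR9 KO against a pool that holds WT RNA. The cause was not tested, and the Tlr9 probe gave no check of the TLR9 label. With PL2-3 it gave -0.57, -0.31 and -0.45 in the double knockout and -0.31, -1.14 and -0.38 in TLR9 KO, and its mean difference of 0.16 became -0.17 without the 24 h arrays.

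Across the genome the 3 times did not share a common difference large enough to pass the test. Of 20447 genes, 0 (0%) passed an adjusted p of 0.05 in limma's fit of the 6 arrays, while 611 (2.99%) had an unadjusted p under 0.05. At 6 h, 94 genes (0.46%) were at least 2-fold higher in the double knockout and 30 (0.147%) at least 2-fold lower. At 24 h there were 629 higher (3.08%) and 684 lower (3.35%), and at 42 h 296 higher (1.45%) and 39 lower (0.191%). The processed signals of Feature Extraction gave 673 higher and 780 lower at 6 h, and 1109 higher and 724 lower at 42 h. With median centring in place of loess there were 538 higher and 1076 lower at 24 h. For TLR7 KO against WT, 47 genes (0.23%) were higher and 16 (0.0783%) lower at 6 h, 24 (0.117%) and 11 (0.0538%) at 24 h, and 129 (0.631%) and 115 (0.563%) at 42 h. Before stimulation the double knockout already differed from TLR9 KO at least 2-fold in 302 genes that were higher (1.48%) and 113 that were lower (0.554%).

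Many genes lower in the double knockout at 24 h were higher at 42 h. Of the 684 genes at least 2-fold lower in the double knockout at 24 h, 521 lay above 0 at 42 h, where 10545 of all 20447 genes did. Of the 629 higher at 24 h, 309 lay below 0 at 42 h, a share close to that of all genes, of which 9902 did. The 24 h and 42 h differences correlated at -0.185 across all genes, which are not independent and share slide and pool. At least 2-fold lower at 24 h and at least 2-fold higher at 42 h were 168 genes (0.822%), against 9 (0.044%) with the opposite order. The same way at all 3 times were 0 genes higher (0%) and 5 lower (0.0245%). The SD of the differences over all genes was 0.234 at 6 h, 0.545 at 24 h and 0.314 at 42 h.

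**Figure D1:**
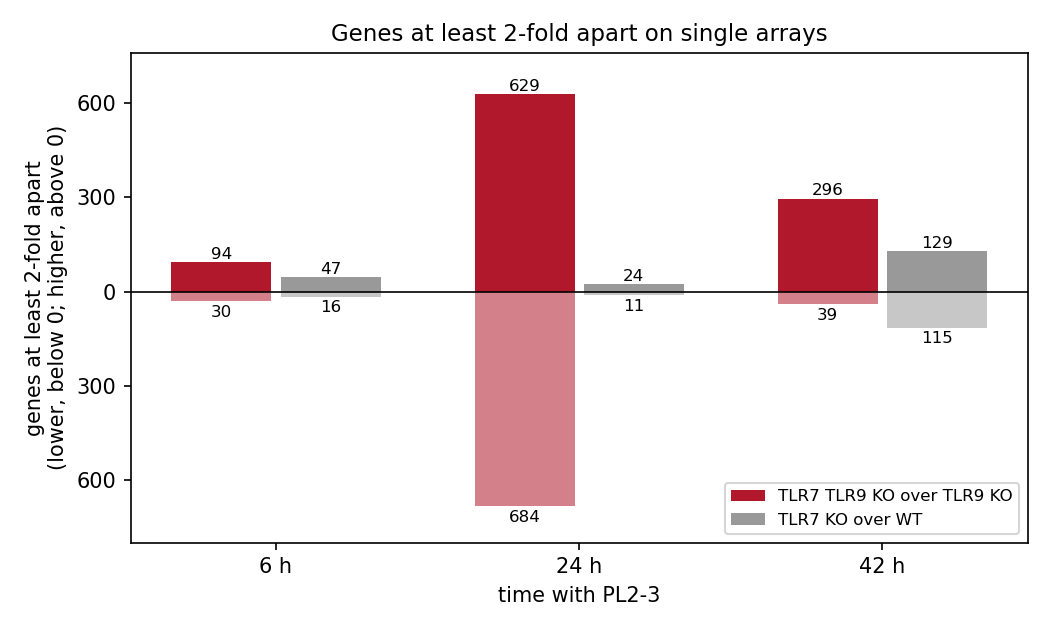
Number of genes at least 2-fold higher or lower at 6, 24 and 42 h, for TLR7 TLR9 KO against TLR9 KO and for TLR7 KO against WT, each bar being 1 array against 1. The 24 h bars of TLR7 TLR9 KO against TLR9 KO reach 629 and 684 genes, the highest of the 12 bars.

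The 5 genes at least 2-fold lower at all 3 times were Slc7a4, Mfap1a and 3 transcripts that the array lists under AK007918, BC019489 and ENSMUST00000103418 only. Slc7a4, a member of the cationic amino acid transporter family, gave -1.63, -1.31 and -1.50 in the double knockout and 1.43, 2.55 and 2.10 in TLR9 KO. The groups did not overlap. The mean difference was -3.51 ± 0.185 (SE, n = 3 times), with an adjusted p of 0.206 by limma. At 6 h the double knockout spot was not well above background, and Cy5 signal alone put it at least 10.2-fold lower. Before stimulation the difference was already -2.26. A second Slc7a4 probe was above background on 0 arrays and gave no check. BC019489 gave -2.46, -2.26 and -2.53 in the double knockout against -0.94, 1.64 and -0.65 in TLR9 KO. AK007918 gave -1.91, -2.15 and -2.12 against -0.83, 2.12 and -0.65. ENSMUST00000103418 gave -2.37, -2.53 and -2.91 against -1.14, 1.13 and -0.61. These 3 transcripts kept a narrow range in the double knockout, and the TLR9 KO array at 24 h was their highest.

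Mfap1a and Mfap1b, near-identical neighbours that encode a spliceosome protein, were lower in the double knockout with little spread between times. Mfap1a gave -1.26, -1.27 and -1.41 in the double knockout and -0.25, -0.20 and -0.16 in TLR9 KO, a mean difference of -1.11 ± 0.113 (SE, n = 3 times) with an adjusted p of 0.945 by limma. Mfap1b gave -1.41, -1.13 and -1.25 in the double knockout and -0.61, -0.25 and -0.15 in TLR9 KO, a mean of -0.93. They lie 26 kb apart on chromosome 2 of the mm9 map, and because the copies are so alike their probes may share signal. Both were lower before stimulation too, by -1.02 for Mfap1a and -0.61 for Mfap1b. Sord, which encodes sorbitol dehydrogenase and lies 772 kb from Mfap1a, had a mean difference of -0.62.

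When TLR7 KO and WT arrays joined the fit, which then held 12 arrays and 22131 genes, 3 genes passed (0.0136%), against 1275 at an unadjusted p under 0.05 (5.76%). They were Slc7a4 with an adjusted p of 0.000901, Mfap1a with 0.00508 and Mfap1b with 0.0166 by limma. All 3 fell in the double knockout relative to TLR9 KO. TLR9 KO was also the highest genotype at each time for all 3. Slc7a4 lay at -1.23, -1.28 and -1.17 in TLR7 KO and at -1.13, -1.29 and -0.98 in WT at 6, 24 and 42 h. Mfap1a lay at -1.41, -1.36 and -1.38 in TLR7 KO and at -1.07, -1.02 and -0.88 in WT. Mfap1b lay at -1.50, -1.14 and -1.02 in TLR7 KO and at -1.104, -0.73 and -0.75 in WT. At each time the double knockout value was closer to that of WT, which has both receptors, than to that of TLR9 KO.

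The remaining genes with the same sign at each time did not pass the adjusted test, and their values are given as measured. Ccl4, a chemokine made by activated B cells, gave 6.11, 2.54 and 3.74 in the double knockout and 6.69, 6.81 and 5.38 in TLR9 KO. Its difference ran from -0.58 at 6 h to -4.27 at 24 h, which is 19.3-fold lower. Wfdc21, which lies 88 kb from Ccl4, gave -4.57, -4.71 and -5.02 in the double knockout and -4.02, -2.64 and -4.08 in TLR9 KO, with -1.06 at 0 h. Syce1, a component of the meiotic synaptonemal complex, was not well above background on any double knockout array. It gave 0.88, 0.88 and 0.69 in TLR9 KO, and its measured differences were -1.38, -1.09 and -0.85. Cy5 signal alone, averaged over the 3 times, put it at least 2.34-fold lower in the double knockout. Unc5cl gave -1.54, -0.74 and -0.78 in the double knockout against -0.53, -0.06 and -0.03 in TLR9 KO. Afp, which encodes alpha-fetoprotein, had a mean difference of -0.81.

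Genes higher in the double knockout at every time were led by the U1 small nuclear RNA gene Rnu1b6, which gave -1.10, -1.90 and -1.87 in the double knockout and -2.56, -2.78 and -3.67 in TLR9 KO. U1 genes have near-identical copies, so its value is uncertain. Ifi207 and Ifi203-ps, neighbours 57 kb apart in the interferon-inducible p200 family, had mean differences of 1.19 and 0.75. Ifi207 gave 2.11, 0.24 and 0.48 in the double knockout against 0.02, -0.38 and -0.40 in TLR9 KO, so most of its mean came from 6 h. H2-T9 and H2-T10, non-classical MHC class I genes 79 kb apart, had mean differences of 0.68 and 0.70, and 0.51 and 0.43 before stimulation. Members of the p200 and H2-T families are alike enough in sequence that their probes may share signal.

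Ptpn22, a phosphatase that restrains antigen receptor signalling, gave 1.75, 1.68 and 1.90 in the double knockout against 1.09, 0.65 and 1.25 in TLR9 KO. Itgav, the alpha-V integrin, gave 2.13, 0.94 and 0.99 in the double knockout and 1.51, 0.27 and 0.23 in TLR9 KO. In both genes every double knockout value lay above the TLR9 KO value of its time. Lrba, which guards receptors from lysosomal breakdown, had a mean difference of 1.04, with smaller differences at its other probes. Rgmb, a co-receptor for bone morphogenetic proteins, had a mean of 0.84. Ncbp3, an mRNA cap-binding protein, had a mean of 0.85 that its other probes did not share, since those gave -0.01, -0.20 and 0.09 and -0.17, -0.31 and 0.21 at the 3 times. Before stimulation the differences were already 1.015 for Lrba, 0.54 for Ptpn22 and 0.52 for Ncbp3. They were 0.27 for Rgmb and -0.19 for Itgav. The adjusted p in limma's fit was 0.945 for each gene named in this and the preceding 2 paragraphs.

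**Figure D2:**
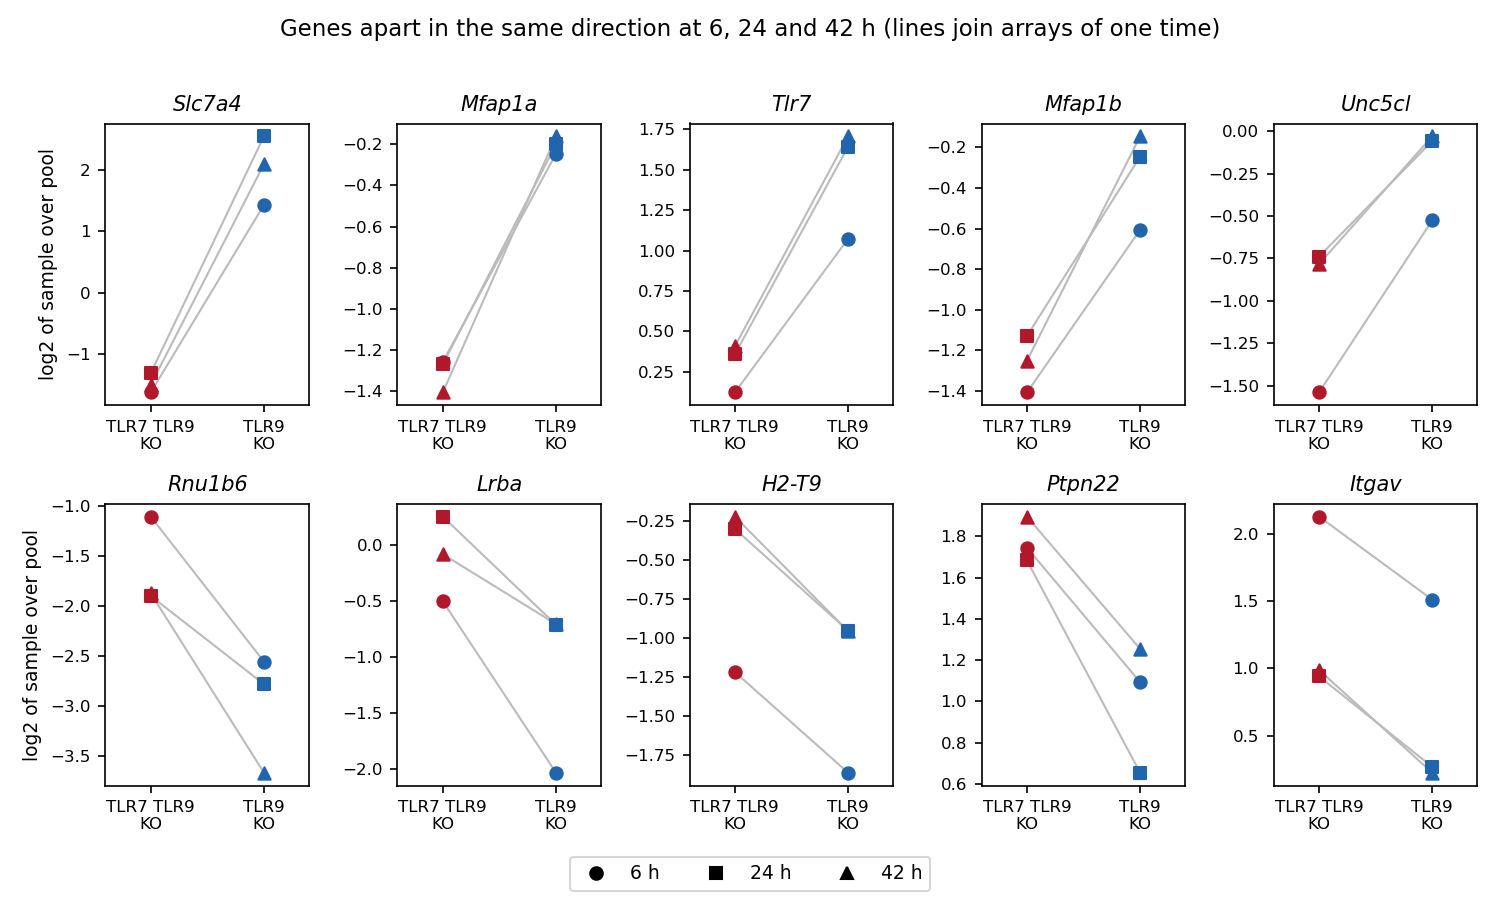
Log2 ratio to the pool on each array for genes with the same sign of difference at 6, 24 and 42 h, with TLR7 TLR9 KO to the left of TLR9 KO in each panel. Slc7a4 lies between -1.63 and -1.31 in TLR7 TLR9 KO and between 1.43 and 2.55 in TLR9 KO.

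At 6 h most interferon-stimulated genes were higher in the double knockout. All 25 listed genes were measured, and 21 of the 25 were at least 2-fold higher in the double knockout with 0 lower, against 0.46% higher among all genes. Their median difference was 1.75, ranging from 0.20 to 3.46, against -0.02 over all genes. Ifi44 gave 2.52 in the double knockout and -0.94 in TLR9 KO at 6 h. Ly6a, a surface protein induced by interferon that is outside the list, gave 2.37 and -0.88, which is 9.52-fold higher. It had already differed by 2.05 before stimulation. The transcription factor Irf7 gave 0.42 in the double knockout and -1.92 in TLR9 KO. The antiviral effectors Oas1a, Ifit3 and Mx1 differed by 2.74, 2.59 and 2.50, and the modifier Isg15 and its protease Usp18 by 1.82 and 2.31. Among those under 2-fold were Bst2 at 0.998, Ddx58 at 0.89 and Stat2 at 0.20. Cxcl10, an interferon-responsive chemokine, differed by 1.52.

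The promoters of 3 of these genes are shown because they hold the core of the interferon-stimulated response element, the DNA element through which many genes respond to type I interferon. Each is the 250 bases before the RefSeq start (GRCm38.p6), on the gene's strand, with the motif in capitals. They are chr5:120907526-120907775 (minus strand) for Oas1a, chr19:34583279-34583528 (plus strand) for Ifit3 and chr4:156200819-156201068 (minus strand) for Isg15.
Oas1a: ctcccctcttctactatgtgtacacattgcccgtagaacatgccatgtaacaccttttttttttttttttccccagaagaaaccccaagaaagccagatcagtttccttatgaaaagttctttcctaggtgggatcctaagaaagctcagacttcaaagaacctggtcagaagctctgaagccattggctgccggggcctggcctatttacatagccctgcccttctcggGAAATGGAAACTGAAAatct
Ifit3: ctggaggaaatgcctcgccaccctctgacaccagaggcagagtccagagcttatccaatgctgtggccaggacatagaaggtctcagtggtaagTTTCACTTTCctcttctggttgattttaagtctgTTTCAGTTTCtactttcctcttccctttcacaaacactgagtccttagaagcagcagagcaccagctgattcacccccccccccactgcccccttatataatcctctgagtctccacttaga
Isg15: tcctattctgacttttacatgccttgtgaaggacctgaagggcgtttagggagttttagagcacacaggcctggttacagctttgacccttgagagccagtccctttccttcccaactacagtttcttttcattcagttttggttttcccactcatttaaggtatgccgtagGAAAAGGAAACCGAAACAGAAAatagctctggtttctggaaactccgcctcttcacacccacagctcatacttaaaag
The motif searched was GAAA, any 2 bases and GAAA, on either strand, and matches overlap in Oas1a and Isg15. Of 17 listed genes with a promoter in the RefSeq table, 8 held it (Ifit1, Ifit3, Isg15, Oas1a, Oas3, Rsad2, Stat2 and Bst2), against 936 of 27025 genes (3.46%). A match is a description of these letters and not evidence of a bound site.

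The difference at 6 h did not continue in the same form. At 24 h, 0 of the 25 genes were at least 2-fold higher and 2 were lower, Ifih1 at -2.60 and Isg15 at -1.96, with a median of -0.15. At 42 h, 3 were higher and 0 lower, Ifi44 at 1.49, Ifit2 at 1.32 and Oas1a at 1.01, with a median of 0.44. Before stimulation 3 were higher, against 1.48% of all genes, and the median was 0.40. Among these 3 were Ifi44 at 1.05 and Oas1a at 1.02, so part of their 6 h difference was there at the start.

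By array, the list's median log2 ratio at 0, 6, 24 and 42 h ran 0.23, 0.60, 0.21 and 0.24 for the double knockout, and -0.25, -1.15, 0.45 and -0.53 for TLR9 KO. It was -0.01, -1.01, -0.29 and -0.21 in TLR7 KO, and 0.06, -0.90, -0.23 and -0.06 in WT. At 6 h the double knockout array was thus the only array of the 4 genotypes with a median above the pool. Set against the mean of the WT and TLR7 KO arrays at 6 h in place of the TLR9 KO array, 16 of 25 genes were at least 2-fold higher, with a median of 1.401. That alternative was chosen after the data were seen and crosses slides. The TLR7 KO minus WT medians were -0.11, 0.07 and -0.19 at 6, 24 and 42 h.

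**Figure D3:**
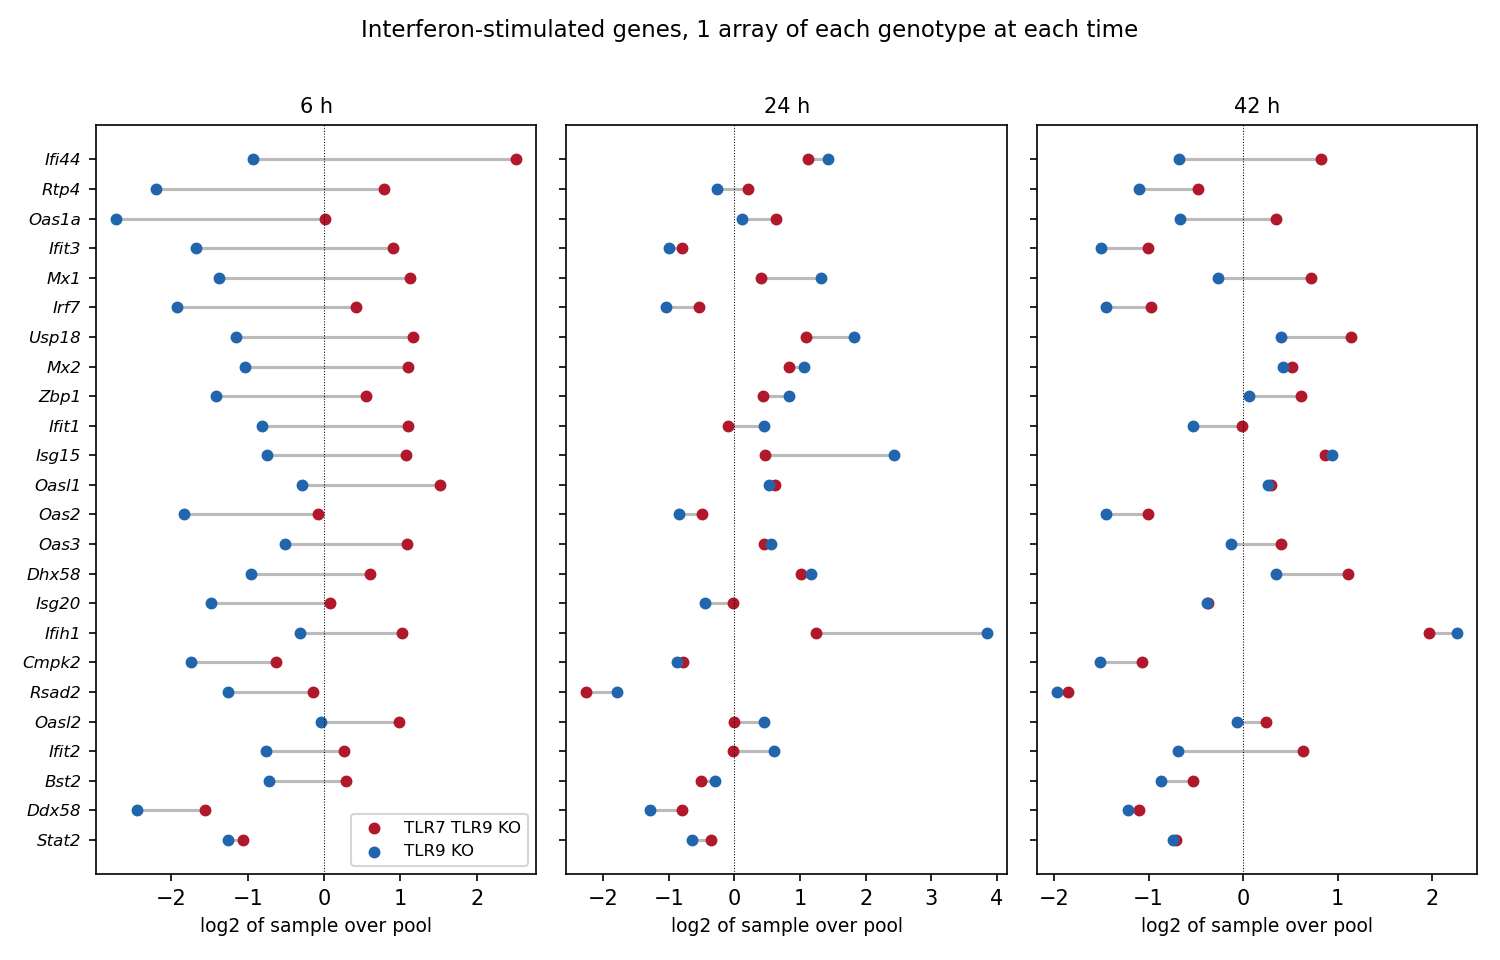
Log2 ratio to the pool (x axis) of 24 of the 25 interferon-stimulated genes at 6, 24 and 42 h, with 1 point per array for TLR7 TLR9 KO and for TLR9 KO and a line joining them. At 6 h the TLR7 TLR9 KO point lies to the right for every gene shown, with Ifi44 at 2.52 and -0.94.

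Beside Slc7a4 and Syce1, the genes that the naming rule gave as lowest at 6 h were S100a9, S100a8 and Camp. S100a9, a neutrophil calcium-binding protein, gave -3.70, -3.95 and -4.18 in the double knockout against -1.81, -3.82 and -2.53 in TLR9 KO, and S100a8 differed by -1.51 at 6 h. S100a8 was not well above background in either group at 24 h. At 42 h Cy5 signal alone put it at least 2.21-fold lower in the double knockout, where it was not well above background. Camp, the cathelicidin antimicrobial peptide, differed by -1.42 at 6 h. The differences at 0 h were -1.65 for S100a9, -1.59 for S100a8 and -1.68 for Camp. In cells with TLR9, TLR7 KO was below WT as well. At 6, 24 and 42 h it differed by -0.93, -0.42 and -4.14 for S100a9 and by -0.89, -0.47 and -0.60 for S100a8. For Camp it differed by -0.60, -0.21 and -0.665. Of 14 measured myeloid markers, 2 were at least 2-fold lower at 6 h, against 0.147% of all genes, with a median of -0.17, and at 24 h 12 of 14 lay above 0. The 2 lower markers were S100a8 and S100a9, already named for their low values, so this count is no separate support. The summed Cy5 signal of the myeloid marker list was 7153, 10870 and 9728 at 6, 24 and 42 h for the double knockout against 9569, 6061 and 12681 in TLR9 KO, with 9 of 15 markers above background on all 6 arrays and Fcgr1 above background on 0 arrays. The part of other cell types in these results was not tested. In bulk samples such as these, fewer cells of a type and less RNA per cell cannot be told apart.

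At 24 h most genes of DNA replication and cell division were lower in the double knockout. Of 34 listed, 32 were measured, and 28 of the 32 were at least 2-fold lower in the double knockout with 0 higher, against 3.35% lower among all genes. The median difference was -2.10 and the range -3.50 to -0.38. Mki67, the proliferation antigen, gave, at 6, 24 and 42 h, -1.81, 0.59 and 3.41 in the double knockout and -1.69, 3.999 and 1.13 in TLR9 KO. Birc5, a subunit of the chromosomal passenger complex, gave 0.68, 1.20 and 3.90 in the double knockout and 0.27, 4.69 and 1.90 in TLR9 KO. The mitotic cyclin Ccnb1 differed by -3.40 at 24 h, the S-phase cyclin Ccna2 by -3.35, the mitotic kinase Plk1 by -3.18, the ribonucleotide reductase subunit Rrm2 by -3.06 and topoisomerase Top2a by -2.78. Under 2-fold at 24 h were Mcm2 at -0.94, Pcna at -0.84, Mcm5 at -0.61 and Cdt1 at -0.38, which act at or before S phase.

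At 42 h the same list stood the other way. It held 18 members at least 2-fold higher and 0 lower, against 1.45% higher among all genes, with a median of 1.11 and a range of 0.33 to 2.28. All 32 measured members lay below 0 at 24 h and above 0 at 42 h, against 23.5% of all genes, and 18 passed 2-fold in both directions. At 6 h the median was -0.01 with 0 members past 2-fold. Ube2c, the ubiquitin-conjugating enzyme of the anaphase-promoting complex, gave -0.08 in the double knockout and 3.90 in TLR9 KO at 24 h, and 3.06 and 0.94 at 42 h. Nusap1, a spindle protein, gave 3.20 in the double knockout and 0.81 in TLR9 KO at 42 h, and differed by -3.23 at 24 h. The histone genes H2ac22 and H2ac11 differed by -3.65 and -3.53 at 24 h and by 1.42 and 1.47 at 42 h, though near-identical histone copies make their identity uncertain.

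The array medians show where the reversal lay. At 0, 6, 24 and 42 h the division list's median ran 0.05, 0.06, 0.77 and 2.34 for the double knockout, and -0.03, 0.05, 3.12 and 1.18 for TLR9 KO. It was 0.07, 0.13, 2.06 and 3.20 in TLR7 KO, and -0.03, 0.00, 2.16 and 3.12 in WT. TLR9 KO was thus the only genotype of the 4 whose median was lower at 42 h than at 24 h. Against the mean of the WT and TLR7 KO arrays, the double knockout had 24 of 32 members at least 2-fold lower at 24 h, with a median of -1.31. At 42 h the same alternative gave 0 members higher and 9 lower, with a median of -0.63, so the 42 h direction rests on the TLR9 KO array. At 6, 24 and 42 h the B cell marker sum in Cy5 (10 of 10 markers above background on all 6 arrays) was 78014, 131648 and 122764 in the double knockout and 82923, 83151 and 122992 in TLR9 KO.

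**Figure D4:**
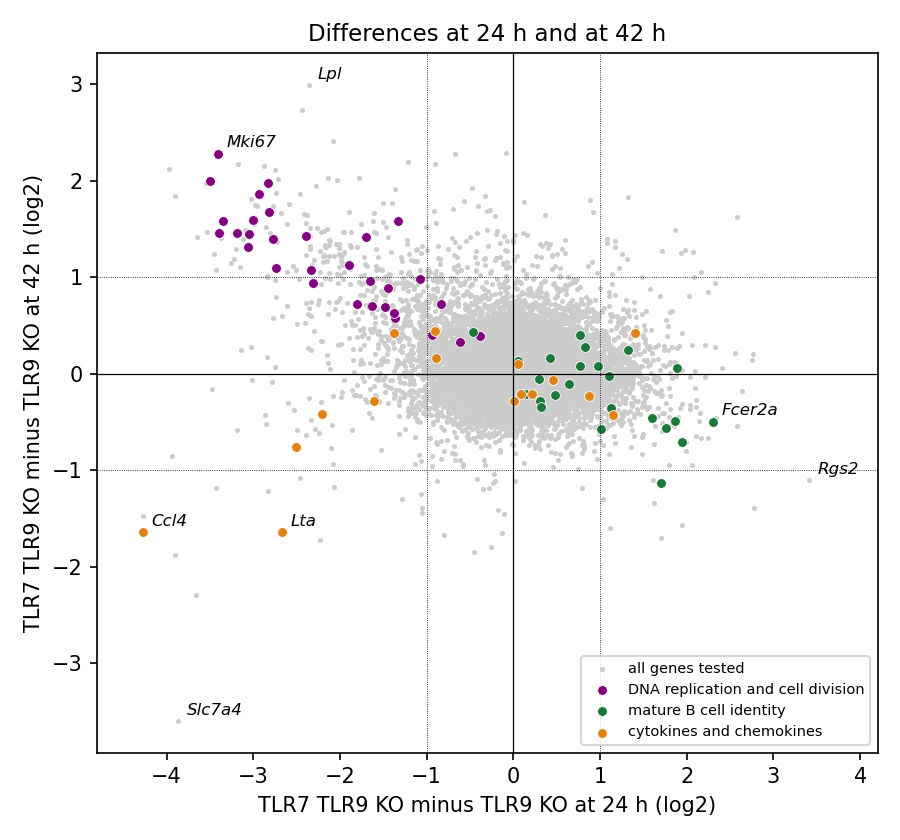
Difference at 42 h against difference at 24 h for each gene (log2, TLR7 TLR9 KO minus TLR9 KO), with genes of cell division, mature B cell identity and cytokines marked. All 32 division genes lie below 0 on the 24 h axis and above 0 on the 42 h axis.

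The promoters of 3 division genes are shown for the CCAAT box and the TTTGAA element of the cell cycle homology region, which recur in genes of the G2 and M phases. They are the 250 bases before the RefSeq start (GRCm38.p6) on the gene's strand, with either motif in capitals, at chr9:70421555-70421804 (minus strand) for Ccnb2, chr2:164769679-164769928 (plus strand) for Ube2c and chr7:135716380-135716629 (minus strand) for Mki67.
Ccnb2: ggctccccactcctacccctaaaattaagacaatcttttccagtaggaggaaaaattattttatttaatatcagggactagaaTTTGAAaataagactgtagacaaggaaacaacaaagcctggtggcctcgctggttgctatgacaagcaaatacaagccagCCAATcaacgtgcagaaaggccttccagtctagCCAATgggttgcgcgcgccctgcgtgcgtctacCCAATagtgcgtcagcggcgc
Ube2c: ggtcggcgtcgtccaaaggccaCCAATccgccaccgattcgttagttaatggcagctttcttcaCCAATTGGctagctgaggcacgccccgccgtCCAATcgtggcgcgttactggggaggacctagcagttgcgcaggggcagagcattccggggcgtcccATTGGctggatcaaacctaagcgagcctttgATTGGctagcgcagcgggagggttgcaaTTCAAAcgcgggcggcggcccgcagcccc
Mki67: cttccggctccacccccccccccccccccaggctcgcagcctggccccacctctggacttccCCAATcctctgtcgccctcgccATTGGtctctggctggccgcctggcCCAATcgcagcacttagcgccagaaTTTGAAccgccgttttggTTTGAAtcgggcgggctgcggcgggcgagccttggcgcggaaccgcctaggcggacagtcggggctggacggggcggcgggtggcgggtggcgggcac
CCAAT or ATTGG stood in 20 of 26 listed division genes with a promoter in the table, against 37.5% of all genes, and TTTGAA or TTCAAA in 7 of 26, against 18.3%. Matches overlap in Ube2c, which is not a member of the list. Of the 3, Ccnb2 differed by -2.83 at 24 h and 1.98 at 42 h.

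Genes that mark resting B cells ran the opposite way at 24 h. Of 24 measured genes of mature B cell identity, 11 were at least 2-fold higher in the double knockout and 0 lower, against 3.08% higher among all genes, with a median of 0.90. The medians at 6 and 42 h were -0.05 and -0.16. The IgE receptor Fcer2a gave -2.57, -1.50 and -2.30 in the double knockout and -2.36, -3.81 and -1.80 in TLR9 KO. The TLR9 KO array at 24 h was the lowest of the 6. The complement receptor Cr2 differed by 1.95 at 24 h, the quiescence factor Klf2 by 1.87 and Cd72 by 1.76. Bcl6, the germinal centre repressor, differed by 1.70 at 24 h and by -1.13 at 42 h. Against the WT and TLR7 KO mean 11 members were again at least 2-fold higher at 24 h, with a median of 0.92.

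Further groups differed mainly at 24 h as well. Glycolysis genes had 7 of 20 measured members at least 2-fold lower in the double knockout, against 3.35% of all genes, and a median of -0.90, among them Tpi1 at -1.85, lactate dehydrogenase Ldha at -1.71 and the kinase Pdk1 at -1.52. By array the glycolysis median at 24 h was 0.15 in the double knockout and 1.03 in TLR9 KO, and at 42 h 0.16 and 0.23. In TLR7 KO and WT it was 0.63 and 0.465 at 24 h, between those of the other groups, and 1.76 and 1.815 at 42 h, above both. Ldha gave 2.52, 0.91 and 0.99 in the double knockout and 2.59, 2.62 and 1.25 in TLR9 KO. Targets of MYC had 4 of 23 lower (3.35% of all genes), the polyamine enzymes Odc1 at -1.49 and Srm at -1.13 and the nucleolar proteins Nolc1 at -1.14 and Nop56 at -1.02, while Myc itself differed by -0.93. Immediate early genes had 7 of 23 higher (3.08% of all genes), among them Nr4a1 at 1.58, Egr2 at 1.56 and Egr1 at 1.45, and 1 lower, Atf3 at -1.86. Marginal zone B cell genes had 5 of 15 higher (3.08% of all genes), among them the sphingosine receptors S1pr3 at 2.33 and S1pr1 at 1.80, and 1 lower, Plac8 at -2.37.

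**Figure D5:**
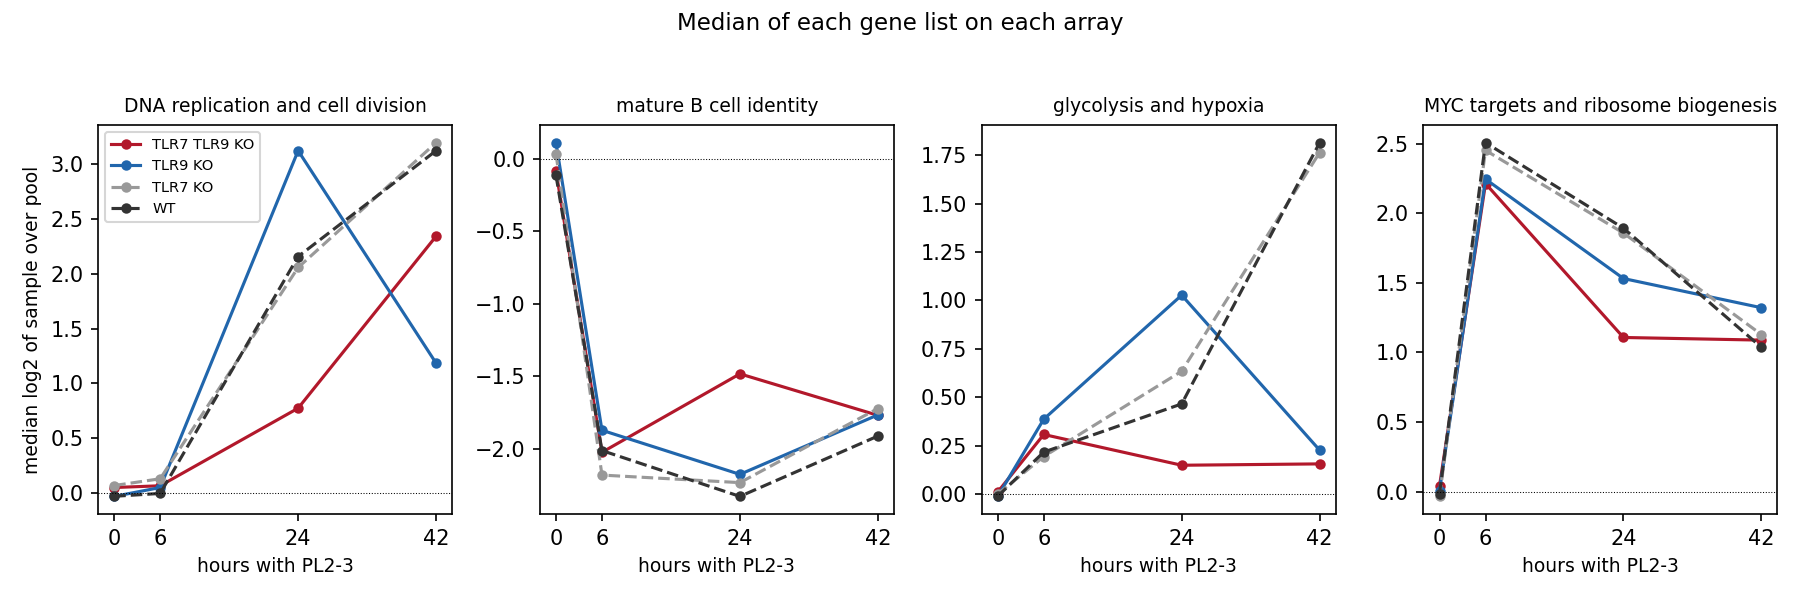
Median log2 ratio to the pool of 4 gene lists on each of the 16 arrays against hours with PL2-3, with a line for each genotype. For division genes the 24 h medians are 0.77 in TLR7 TLR9 KO and 3.12 in TLR9 KO.

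Cytokine genes went both ways at 24 h. Of 26 listed, 16 were measured, with 8 above 0 and 8 below. At least 2-fold lower in the double knockout were 6, against 3.35% of all genes, and higher were 2, against 3.08%. The lower ones beside Ccl4 were lymphotoxin Lta at -2.67, Tnf at -2.51, Il6, Ccl3 at -1.60 and Ccl5 at -1.38. Lta gave -1.79, -2.43 and -3.27 in the double knockout against -1.57, 0.23 and -1.63 in TLR9 KO, and at 42 h it and Ccl4 were still more than 2-fold lower, at -1.64 each. Il6 was not well above background in the double knockout at 24 h, where it was at least 4.64-fold lower than in TLR9 KO, which gave 2.39. The higher ones were Csf1 at 1.41 and Xcl1 at 1.15.

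Signalling and activation lists had a few members past 2-fold at 24 h, against 3.35% lower and 3.08% higher among all genes. D cyclins and cell cycle inhibitors had 3 of 13 lower and 0 higher, and class switching genes 3 of 19 lower and 1 higher. Activation genes had 2 lower and 2 higher of 22, and TLR pathway genes 2 lower and 1 higher of 24, with Tlr7 itself among the lower. NF-kB genes had 1 of 23 lower and 0 higher, and plasma cell genes 1 of 16 lower and 0 higher. In lists of this size 1 or 2 members are near or little above the share of all genes. Such counts are no result about the lists. Of 23 NF-kB genes, Gadd45b differed by -2.85 at 24 h and Nfkbid by 1.37 at 42 h, and the list's median at 24 h was 0.02. Of 24 measured genes of the TLR pathway itself, Irf7 alone passed 2-fold at 6 h. The endosomal protease Lgmn, which cleaves TLRs in the endosome, differed by 1.22 at 24 h and 1.097 at 42 h, and the TLR chaperone Hsp90b1 by -1.15 at 24 h. Among D cyclins and cell cycle inhibitors, Cdkn1a gave -0.29 in the double knockout and 2.73 in TLR9 KO at 24 h, a difference of -3.02. The activation antigen Cd44 differed by -2.49 and the costimulatory ligand Icosl by 1.70 at 24 h and -1.71 at 42 h, while another Icosl probe was above background on 1 of 6 arrays and gave no check. For class switching, the factor Batf differed by -2.22 at 24 h. Among plasma cell genes Derl3 differed by -2.13 at 24 h and 1.22 at 42 h, and the syndecan Sdc1 by 1.27 at 42 h.

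Other single genes led at the late times. At 24 h Rgs2, a regulator of G protein signalling, gave 1.39 in the double knockout and -2.02 in TLR9 KO, but a second probe, above background on 4 of 6 arrays, differed by 0.69. Crisp3 gave 3.25 and 0.61, Pira2 -1.38 and -3.95 with a second probe, above background on 3 of 6 arrays, at 0.19, and Anxa1, annexin A1, 1.36 and -1.05 with a second probe at 2.01. At 42 h lipoprotein lipase Lpl gave 3.25 in the double knockout and 0.26 in TLR9 KO, Siglecf 4.87 and 2.13, and Cst6 3.72 and 1.31, each lower at 24 h by differences of -2.36, -2.43 and -2.08. Lower at 42 h were Ifnlr1, the interferon lambda receptor, at 0.35 in the double knockout and 2.08 in TLR9 KO, and Hbb-bs, beta-globin, at -4.55 and -2.96. At 6, 24 and 42 h the erythroid marker sum was 43833, 25075 and 16278 in the double knockout against 62307, 16323 and 32144 in TLR9 KO. Of 10 markers 6 were above background on all 6 arrays, with Rhag among those above background on 0 arrays, and its part in these values was not tested.

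Whether TLR7 loss acted differently without and with TLR9 was tested as the double knockout minus TLR9 KO less TLR7 KO minus WT, over 12 arrays. Of 22131 genes 2 passed (0.00904%), against 762 at an unadjusted p under 0.05 (3.44%). Slc7a4 had a difference of differences of -3.41 ± 0.296 (SE) with an adjusted p of 0.0114 by limma, since TLR7 KO minus WT averaged -0.09. Arl2bp, a partner of the small GTPase ARL2, had 2.52 ± 0.126 with an adjusted p of 0.00019 by limma. The Slc7a4 probe was above background on 3 of the 6 TLR7 KO and WT arrays, so that -0.09 rests partly on signal near background. For Arl2bp the double knockout differed from TLR9 KO by -0.18, and TLR7 KO was below WT by a difference of -2.70, and of -2.83 before stimulation. Its second probe gave 0.01 in the double knockout minus TLR9 KO and -0.33 in TLR7 KO minus WT, so the probes disagreed. For the interferon and division lists this difference between settings passed the adjusted test in 0 members. The test averages the 3 times and takes their disagreement as error. It could hardly detect differences that change between times, as those of both lists did, so it gives no answer for them. At 6 h the interferon list's median difference was 1.75 without TLR9 and -0.11 with it.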

How the data were processed

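Total RNA was amplified with labelled CTP and hybridised to 2-colour Agilent arrays, per the labels' protocols, with the sample in Cy5 and the pool in Cy3 and no dye swap. The array design was annotated on mm9 and scans were quantified by Agilent Feature Extraction 10.1.1.1, per the file headers. The deposited spot intensities are uncorrected means with a median local background. The processed intensities, per the file headers, were background-subtracted and dye-normalised, and flags per spot mark background, saturation and outliers. The authors deposited a series-wide matrix of log10 ratios, which matched log10 of the processed signals' ratio within 0.001 in 100% of 948880 spots.

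Values here were computed with limma 3.58.1 and the data.table package (version 1.17.8) in R 4.3.3 from the uncorrected intensities: normexp (offset 50), loess within each array with control spots at weight 0, and log2 of Cy5 over Cy3. Flagged outlier spots were set to missing, repeated spots averaged, and the brightest probe taken for each gene. Of 55681 probes, 27235 were named through a RefSeq accession, 3581 by symbol and 565 by synonym, and 24300 kept the array's own name. Genes on chromosomes X and Y other than Tlr7 were left out (1577 genes). Testing required a signal well above background, in Cy5 or Cy3, on 3 or more of the arrays compared, which left 20447, of which 13850 had a RefSeq symbol. "At least" folds use the Cy5 channel alone, after Aquantile normalisation, against the background level, and are open to dye bias. They can exceed the fold given by the log2 ratios to the pool. The Syce1 value is an average over the 3 times and need not hold at each.

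The 2-sided limma fit (lmFit, eBayes) had genotype and time as terms, with Benjamini-Hochberg adjustment at 0.05. The fit of 6 arrays left 2 residual degrees of freedom. Data were simulated for this comparison over 20447 genes, with changes of 1, 2 and 3 on the log2 scale planted in 68, 66 and 66 genes. The planted changes were the same at each time and errors were independent. The fit recovered 25% of genes changed by 1, 89.4% of those changed by 2 and 97% of those changed by 3, with 5 false calls. Differences that vary between times were not simulated, so these shares do not apply to them. The number of arrays limits the precision, and nothing says that arrays came from separate animals. The members, the 23 gene lists and the tests were chosen with earlier results of these data known, so they are no independent support. Genes were named by rule: calls, filled to 10 in each direction by genes of the same sign at all times with the largest smallest difference, the 5 largest in each direction at each time, Tlr7 and Tlr9, up to 4 members of each list, and interaction calls. Other list members, and the 3 transcripts named by accession, were chosen after their values were seen. A few genes that the rule names are not reported here. Promoters came from RefSeq (GRCm38.p6). Alternatives changed the background signal, normalisation, filter, probe rule, time term, prior and arrays.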

Additional observations from a re-analysis of the deposited data

Results flagged for a closer look

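Slc7a4 and Arl2bp are listed because the double knockout minus TLR9 KO differed from TLR7 KO minus WT by the interaction test. The difference was -3.41 for Slc7a4 and 2.52 for Arl2bp on the log2 scale. Before stimulation Slc7a4 already differed by -2.26 in the double knockout minus TLR9 KO, and Arl2bp by -2.83 in TLR7 KO minus WT. An effect of TLR7 loss cannot be told apart here from other differences between the mice of each genotype. TLR7 KO minus WT averaged -0.09 for Slc7a4, whose probe was above background on 3 of those 6 arrays, so that value rests partly on signal near background. It averaged -2.70 for Arl2bp, whose second probe gave -0.33.

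Another 9 genes are listed because the double knockout minus TLR9 KO had one sign at all times and TLR7 KO minus WT the opposite sign at all times. None of the 9 passed the adjusted p in limma's interaction fit, and they were not otherwise tested. The difference of the means was 3.16 for Rnu1b6, which averaged 1.38 without TLR9 and -1.78 with it. It was 1.95 for Ncbp3 (0.85 and -1.10), whose probes disagreed, 1.30 for Ifi207 (1.19 and -0.11), 1.20 for Ifi203-ps (0.75 and -0.45) and 0.95 for Ptpn22 (0.77 and -0.18). Among genes lower in the double knockout it was -2.35 for Ccl4 (-2.16 and 0.19), -2.25 for Syce1 (-1.11 and 1.15), -2.04 for Wfdc21 (-1.19 and 0.85) and -0.67 for Sord (-0.62 and 0.05). Syce1 was not well above background in the double knockout, so -1.11 and -2.25 are differences of measured log2 ratios and not exact sizes. Cy5 signal alone, averaged over the 3 times, put it at least 2.34-fold lower than in TLR9 KO.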

How the results depend on the processing

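No gene passed an adjusted p of 0.05 in limma's fit of the double knockout against TLR9 KO under the other signals, normalisations, filters, probe rules or priors, without the time term, or without any single time (0 to 0 genes), where 251 to 1080 genes had an unadjusted p under 0.05. The exception was the fit with all 12 stimulated arrays, with 3 genes. Both calls of the difference between settings were lost when any time was left out (0 to 0 genes), at adjusted p from 0.0528 to 0.178 for Arl2bp and from 0.156 to 0.516 for Slc7a4. That leaves fewer samples, and both passed in 8 of 11 settings. Processed signals from Feature Extraction put 1453, 3635 and 1833 genes at least 2-fold apart at 6, 24 and 42 h and 49 the same way throughout. The authors' series table gave 1448, 3625, 1824 and 47, against 124, 1313, 335 and 5 as reported. Median centring gave 553 at 42 h. It moved the median of all genes at 24 h to -0.079, against 0.03, and at 42 h to 0.132, against 0.009. The share of these genes that were higher was 75.8% at 6 h (46.3% with processed signals, 63.8% with no filter on dim probes), 47.9% at 24 h (33.3% with median centring) and 88.4% at 42 h (60.5% with processed signals). With the mean of the WT and TLR7 KO arrays in place of TLR9 KO, chosen after seeing the data, 356 genes lay at least 2-fold apart at 6 h and 1028 at 42 h, and 0 division genes were at least 2-fold higher at 42 h, against 18. The Tlr9 mean was -0.167 without 24 h and 0.378 without 6 h. The causes were not tested. The other 74 values that answer a comparison kept their direction and side of the threshold, or stayed within 1.5 times. Of single genes, another 31 differences at 1 time moved by more than 1.5-fold with no change of sign. The values that follow changed in size by over 1.5 times, and they also include means and differences between settings, which are not among the 31. With processed signals Slc7a4 was at -6.00 in the test of the difference between settings, and the means were -5.41 for Slc7a4, -3.80 for Syce1, -1.98 for Wfdc21, -1.26 for Unc5cl, -1.102 for Sord, 2.08 for Ifi207 and 1.41 for Rgmb. At 6 h Syce1 was then at -5.25, Slc7a4 at -5.32, S100a8 at -2.75 and Camp at -2.65, and at 42 h S100a9 was at -2.58 and Cst6 at 1.17. With the mean of all probes, where dim probes count too, Arl2bp was at 1.43 between settings, Ncbp3 at 0.24, Lrba at 0.47, Rgs2 at 2.05 and Pira2 at 1.38 at 24 h, and Icosl at -0.86 at 42 h. Without 24 h the means were -1.11 for Ccl4 and -0.74 for Wfdc21, and without 6 h 0.75 for Ifi207. Signal near background limits Slc7a4, Syce1 and S100a8 in the double knockout.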

Other observations

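Further lists had a few members at least 2-fold apart at 24 h, against 3.08% higher and 3.35% lower among all genes. Counts of 1 or 2 in lists of this size are near or little above these shares and are no result about the lists. Of 22 survival and apoptosis genes 1 was higher, the BH3-only gene Bmf at 1.41, and 2 were lower. The lower ones were Bcl2l1, which encodes BCL-XL, at -1.25 and another at -1.30. At 42 h 2 of the 22 were higher, against 1.45% of all genes, the BH3-only genes Bbc3 and Pmaip1 at 1.22 and 1.12. Of 20 genes of cholesterol and fatty acid synthesis, the desaturase Scd2 and the elongase Elovl6 passed 2-fold at 24 h, at -2.04 and -1.003, and the list's median was -0.53. Scd2 gave, at 6, 24 and 42 h, -0.02, 2.04 and 3.18 in the double knockout and 0.19, 4.08 and 2.44 in TLR9 KO. Of 19 genes of oxidative phosphorylation, Cycs, cytochrome c, passed at 24 h at -1.17. Of 22 genes of the endoplasmic reticulum, the stress factor Ddit3 differed by 1.20 and Hsp90b1 by -1.15 at 24 h.

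At 42 h some genes went against both earlier times. Nfkbid, an atypical NF-kB inhibitor, differed by -0.64 and -0.55 at 6 and 24 h and by 1.37 at 42 h. Derl3 differed by -0.55 and -2.13 and then by 1.22, and Klf2 by 0.68 and 1.87 and then by -0.49.

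Of 10 B cell markers, 4 were at least 2-fold higher in the double knockout at 24 h, against 3.08% of all genes, with a median of 0.80. At 6, 24 and 42 h the T cell marker sum in Cy5 was 13720, 36420 and 25689 in the double knockout, against 15542, 24213 and 32492 in TLR9 KO, with 11 of 14 markers above background on all 6 arrays and Cd8a and Cd8b1 above background on 0 arrays. The NK and plasmacytoid sum was 43582, 42970 and 43504 in the double knockout, against 47637, 29263 and 45608 in TLR9 KO. Here 7 of 13 markers were above background on all 6 arrays. At 24 h both sums were higher in the double knockout, and at 6 h both were lower. The part of other cells in the results was not tested.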
